A study of Mus musculus with 23 samples.

Results

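The comparison described here is the first day without doxycycline in TT-FHAgo2 mouse embryonic stem (ES) cells. Cells held at 2.5 µg/mL doxycycline for 48 h and then kept 24 h without it (2 libraries) were set against cells collected at the end of those 48 h, with 0 h off (2 libraries). These are 4 of the 23 libraries of the series, chosen by their time label and not by any measured value. Of 18412 genes in the deposited tables, 13652 reached a mean of 10 or more normalised reads in the 8 libraries of the course and were tested. Polyadenylated RNA was sequenced from strand-specific libraries, and reads were tabulated apart for exons and introns. Later times of the same course (48 and 96 h off, 2 libraries each) entered the same fit, and a rescue series gave separate libraries of cells propagated at 0.1 µg/mL and then kept 96 h without doxycycline, collected then or after 48 h at 2.5 µg/mL (2 libraries each).

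All groups, the 0 h controls included, were Blm-/- and Ago1,2,3,4-/- and carried both CreERT2, a Cre recombinase fused to the oestrogen receptor, and TT-FHAgo2. They thus shared the loss of the Blm helicase and of every endogenous Argonaute. Ago2 came from a doxycycline-driven transgene in clonal lines. Cells grew on gelatin with serum and leukemia inhibitory factor, and the first day began when the medium was replaced by medium without the drug. Loss of doxycycline, the fall of transgenic Ago2 that it is meant to cause, the change of medium and 24 more hours of culture came together and cannot be told apart. Nothing in the labels says that the 2 libraries of a group came from separate cultures, so p-values measure only the spread between these libraries.

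Argonaute proteins hold microRNAs and use them to find partly complementary sites, mostly in the 3′ untranslated regions of messenger RNAs, whose translation and stability are then lowered. The seed of a microRNA, its bases 2 to 8, gives most of the pairing. Mouse ES cells are rich in the miR-290 and miR-302 families, which share a seed and are known for speeding the passage from G1 to S phase and for lowering the Lefty inhibitors of Nodal. The let-7 family, held back by Lin28 proteins in ES cells, is known for opposing self-renewal. Because a seed match is where loss of Ago2 would be read out, the mature sequences of both groups are shown from RefSeq (GRCm38.p6), 5′ to 3′, with the seed in capitals. The first 5 share the seed AAGUGCU and the last pair share GAGGUAG.
miR-291a-3p: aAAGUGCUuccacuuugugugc
miR-294-3p: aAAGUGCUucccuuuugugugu
miR-295-3p: aAAGUGCUacuacuuuugagucu
miR-302b-3p: uAAGUGCUuccauguuuuaguag
miR-302d-3p: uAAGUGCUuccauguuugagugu
let-7a-5p: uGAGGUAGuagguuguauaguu
let-7g-5p: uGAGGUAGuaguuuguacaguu

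Exon reads totalled 50114323 and 44295410 in the 0 h libraries and 45093240 and 32874536 in the 24 h libraries, and intron reads 4048875 to 6669867. Libraries of a group are numbered by depth. Ago1 had 0 reads in every library. Ago2 had 11759 and 12167 at 0 h against 11337 and 11503 at 24 h and was not called (log2 change -0.067 with SE 0.042, adjusted p = 0.19). Ago4 was near the floor and not called (27.1 and 25.2 at 0 h against 36.1 and 32 at 24 h, log2 change 0.37 with SE 0.38, adjusted p = 0.43). Blm fell slightly (6062 and 5927 at 0 h against 5660.1 and 5068 at 24 h, log2 change -0.16 with SE 0.052, adjusted p = 0.013), but not without library 1 of 0 h (-0.15) or library 2 of 24 h (-0.083). Reads over a whole gene do not distinguish the transgene or RNA left by a deleted allele from an intact one, so they do not check the labels. Ago3 reads fell (4406 and 4661 at 0 h against 2765 and 2545 at 24 h, log2 change -0.77 with SE 0.058, adjusted p = 2.1e-10) although the gene is labelled as deleted. All 8 ES-cell markers examined were present, with summed normalised reads of 437516 to 442659 at 0 h and 456265 to 467557 at 24 h. Of these markers 3 were called higher (Dppa5a, Nanog and Sox2) and 5 lower. Of 8 fibroblast markers, Col3a1 and Postn were at 0 in all 4 libraries and 5 of 8 had a mean under 10, while the sum went from 321 to 336 at 0 h to 644 to 679 at 24 h through Col1a1, Pdgfrb and Thy1. Over a longer list of 14 fibroblast genes, 4 of 6 tested rose and 1 fell, against 26.5% higher and 24.1% lower of all tested genes. The sum of the 14 was 1935 to 1995 at 0 h and 2019 to 2043 at 24 h, while S100a6, the most abundant, fell (1303 and 1323 at 0 h against 962 and 965 at 24 h, log2 change -0.45 with SE 0.077, adjusted p = 4.1e-05). The sum of 5 primitive endoderm markers was 326 to 329 and then 322 to 379, with Gata4 (log2 change 0.61, SE 0.17) and Pdgfra (log2 change 1.26, SE 0.28) higher and Sox7 lower (log2 change -1.75, SE 0.35). On the longer primitive endoderm list 9 of 17 tested genes rose, 3 of them at least 2-fold. Another 2 fell, against 26.5% higher and 24.1% lower of all tested genes. The sum of the 18 listed genes was 74991 to 76762 at 0 h and 74865 to 76364 at 24 h. The sum of 4 trophoblast markers was 149 to 172 and then 124 to 138. That of a longer list of 16 went from 7443 to 7615 up to 8412 to 8603. Of its 13 tested genes 4 rose and 2 fell, against 26.5% and 24.1% of all tested genes. Only 2 rises were left without library 2 of 24 h. The part of other cell types in the results was not tested, and in RNA of whole cultures a change in the number of cells of a type cannot be told apart from a change in RNA per cell.

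In exons, 6919 of 13652 genes (50.7%) passed an adjusted p of 0.05, 3624 of them higher at 24 h (26.5%) and 3295 lower (24.1%). Log2 changes are of normalised reads plus 1, from limma with Benjamini-Hochberg adjustment, and are positive where the 24 h libraries were higher. In parentheses after a gene, a lone signed value is its log2 change, and values of reads are normalised exon reads of libraries 1 and 2 of each group. Most changes were small: the median absolute log2 change was 0.242, against a median absolute difference of 0.0843 between the 0 h libraries and 0.087 between the 24 h libraries. At least 1.5-fold changes were called for 1274 genes upwards (9.33%) and 732 downwards (5.36%), at least 2-fold for 555 (4.07%) and 248 (1.82%), and at least 4-fold for 80 (0.586%) and 35 (0.256%). Larger rises were thus more numerous than falls of the same size, by 2-fold or more in 555 against 248 genes. The median over all genes was 0.0117. When reads were scaled to library totals in place of the authors' size factors it moved to 0.0285, and 55.7% of calls were then upward, against 52.4%.

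The largest rises included Adm and Stc1, known targets of hypoxia-inducible factors, and the metal ion transporter gene Slc30a10. Adm, which encodes the vasodilator peptide adrenomedullin (GRCm38 chr7:110627661-110629820), had normalised exon reads of 0 and 4.38 at 0 h against 60.6 and 49.5 at 24 h. Its libraries did not overlap, but the 0 h group held almost no reads, so the size of the change (log2 change 4.59 with SE 0.65, adjusted p = 3.5e-06) depends on the added read and was 2.66 with 8 added, 3.37 without library 1 of 0 h and 5.80 without library 2. Stc1, encoding the glycoprotein hormone stanniocalcin (chr14:69029238-69041804), had 3.87 and 10.9 at 0 h against 160.4 and 122 at 24 h (log2 change 4.21 with SE 0.45, adjusted p = 4.9e-08). Ndufa4l2, a mitochondrial protein (chr10:127514967-127517154), had 43.5 and 65.6 at 0 h against 464 and 459 at 24 h (log2 change 3.09 with SE 0.27, adjusted p = 2.4e-09), with intron reads of 2.89 and 0 at 0 h against 41.7 and 25.9 at 24 h. The choice of the largest changes required that the libraries of the groups not overlap, which held for 74.7% of all tested genes, so it adds nothing to the calls of these genes or of the other largest rises and falls.

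Slc30a10, a manganese and zinc exporter (chr1:185454848-185468762), had 22.2 and 16.4 at 0 h against 129 and 124 at 24 h (log2 change 2.66 with SE 0.31, adjusted p = 1.8e-07), whereas its introns did not pass the test (0.51, adjusted p = 0.55). Megf11, a transmembrane protein with EGF-like domains (chr9:64385626-64709205), had 149 and 114 at 0 h against 867 and 760 at 24 h (log2 change 2.63 with SE 0.11, adjusted p = 7.0e-15), and its intron reads rose as well (232 and 236 at 0 h against 862 and 853 at 24 h). Stra8, a gene of meiotic entry (chr6:34920163-34939344), had 44.5 and 75.5 at 0 h against 349 and 310.1 at 24 h (log2 change 2.48 with SE 0.22, adjusted p = 3.4e-09). Other large rises were in Ppp1r3b (2.62), R3hdml (2.59), Cxcl12 (2.52), Cyp2d22 (2.52) and Aoc3 (2.39), where Ppp1r3b directs a phosphatase to glycogen and Cxcl12 is a chemokine. Cyp2d22 had only 3.87 and 16.4 reads at 0 h, and its log2 change was 1.60 without library 1 of that group and 3.44 without library 2. In the same way Cxcl12 was 3.34 and 1.71, and Stc1 3.56 and 4.86.

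The largest falls included the cystine transporter gene Slc7a11 and the metallothionein gene Mt2, described with their groups below. Fut1, a fucosyltransferase (chr7:45617289-45621059), had 72.5 and 87.5 at 0 h against 8.5 and 8.74 at 24 h (log2 change -3.07 with SE 0.42, adjusted p = 1.9e-06). Bcl2l15, a Bcl2-related gene (chr3:103832601-103854618), had 125 and 161 at 0 h against 17 and 16 at 24 h (log2 change -3.03 with SE 0.34, adjusted p = 9.5e-08), with intron reads of 301 and 249 at 0 h against 59.2 and 41.2 at 24 h. Evx1, a homeobox gene of the primitive streak (chr6:52313498-52318378), had 81.2 and 102 at 0 h against 17 and 8.74 at 24 h (log2 change -2.80 with SE 0.29, adjusted p = 3.9e-08). Evx1 was high again later, with 57.9 and 72.5 at 48 h, then 370.1 and 325 at 96 h. The others were Hoga1 (-2.48), Ubap1l (-2.39), the integrin gene Itga1 (-2.34), Nt5e, which encodes the ectonucleotidase CD73 (-2.28), the kinase gene Dyrk4 (-2.23), Pcdhga8 (-2.14) and Synpo2l (-2.13). Pcdhga8 shares its last exons with other protocadherin genes, so its value is uncertain.

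**Figure D1:**
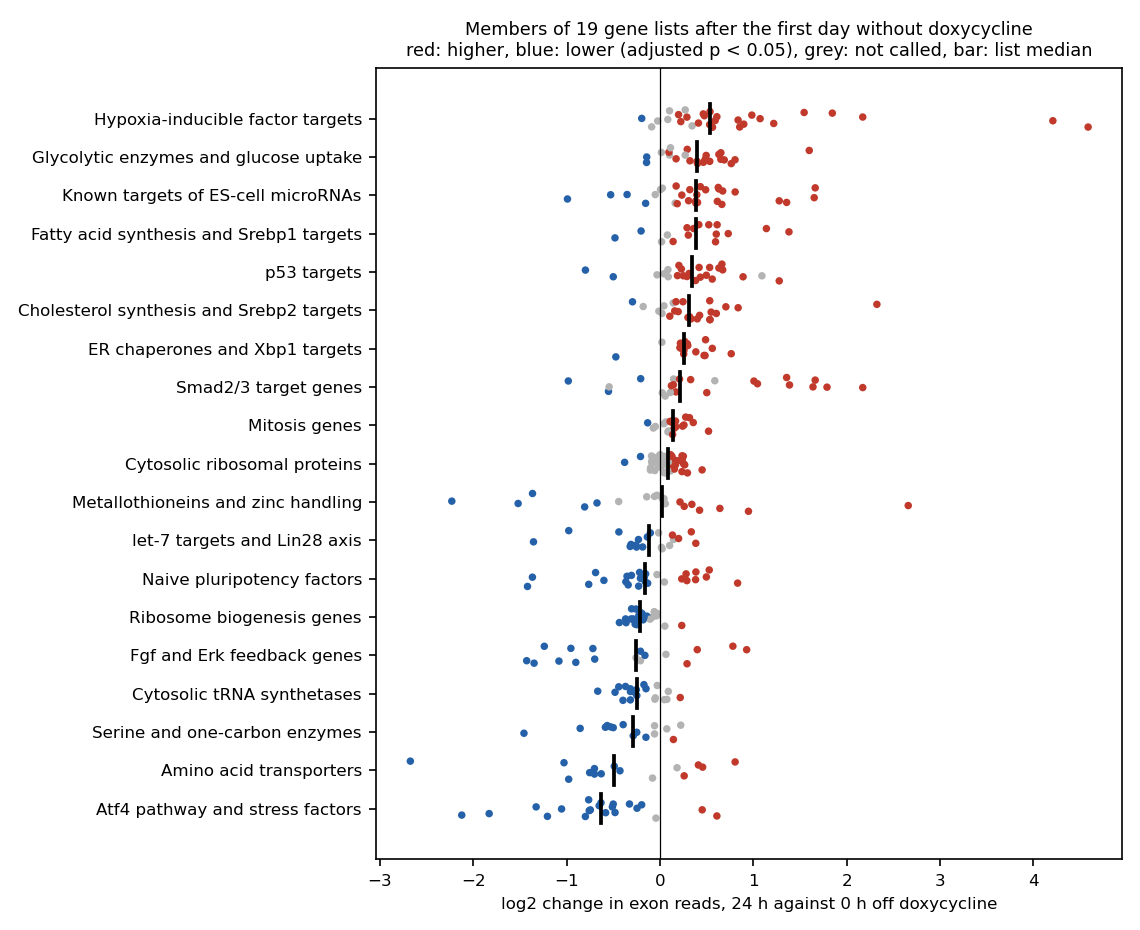
Log2 change in exon reads, 24 h against 0 h off doxycycline (horizontal axis), for every tested member of 19 gene lists (vertical axis), 1 point a gene. Red points were called higher, blue points lower, grey points were not called, and black bars are list medians, which run from -0.63 (Atf4 pathway) to 0.54 (hypoxia-inducible factor targets).

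Targets of hypoxia-inducible factors rose as a group. These factors are held low by prolyl hydroxylases when oxygen is at hand and drive genes of glycolysis, mitophagy and their own feedback when it is not. Of 29 listed targets, 22 rose, 1 fell and 6 were not called, with a median log2 change of 0.536 against 0.012 over all genes. Among all tested genes 26.5% rose and 24.1% fell. Bhlhe40, a clock-related repressor, had 699.7 and 735 at 0 h against 3171 and 3305 at 24 h (log2 change 2.17 with SE 0.11, adjusted p = 1.3e-13). Egln3, one of the prolyl hydroxylases, had 961 and 884 at 0 h against 2664 and 2717 at 24 h (log2 change 1.54 with SE 0.12, adjusted p = 1.9e-10). Bnip3, a mitophagy receptor, had 3292 and 3207 at 0 h against 7574 and 7553 at 24 h (log2 change 1.22 with SE 0.11, adjusted p = 2.6e-09). The 24 h libraries of all 3 lay close to each other and far above the 0 h libraries.

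Car12, a carbonic anhydrase, rose (log2 change 1.85, SE 0.13), as did the feedback hydroxylase Egln1 (log2 change 0.98, SE 0.065), Ndrg1 (log2 change 1.07, SE 0.10) and Ankrd37 (log2 change 0.85, SE 0.20). The gene for the factor itself, Hif1a, was the member that fell (15622 and 14828 at 0 h against 12969 and 13615 at 24 h, log2 change -0.20 with SE 0.042, adjusted p = 4.8e-04). The angiogenic factor gene Vegfa was not called, with 3415 and 3459.6 at 0 h against 3317 and 3148 at 24 h, nor was Slc2a1, the glucose transporter Glut1, with 19518 and 19701 at 0 h against 20858 and 21233 at 24 h. Pdk1, Kdm3a, Car9 and Pfkfb4 were the other targets without a call. In introns, 14 of 25 tested targets rose and 1 fell, where 18.9% of all tested genes rose and 18.3% fell.

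Glycolytic enzymes rose too. Of 23 tested genes of glycolysis and glucose uptake, 17 rose and 2 fell (median 0.401), against 26.5% higher and 24.1% lower of all tested genes. Aldoc had 308 and 357 at 0 h against 998 and 1016 at 24 h (log2 change 1.60 with SE 0.11, adjusted p = 3.6e-11). Tpi1, triosephosphate isomerase, had 22588 and 22631 at 0 h against 37621 and 39162 at 24 h (log2 change 0.76 with SE 0.056, adjusted p = 1.2e-10), and Pfkfb3, which makes the activator of phosphofructokinase, rose (log2 change 0.80, SE 0.09). The 2 that fell were Gapdh (189203 and 211502 at 0 h against 176668 and 185521 at 24 h, log2 change -0.14 with SE 0.053, adjusted p = 0.028) and the lactate transporter gene Slc16a1 (log2 change -0.14, SE 0.043), and both calls depended on single libraries. Gapdh was not called without library 2 of 0 h (-0.064) or library 1 of 24 h (-0.11), nor Slc16a1 without library 1 of 0 h (-0.11). In introns 15 of the 23 rose and 1 fell, against 18.9% and 18.3% of all genes tested in introns.

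Promoters of these genes were searched for the core of the hypoxia response element, ACGTG on either strand, from 250 bases before to 50 after each RefSeq start (GRCm38.p6), counting a gene once if any of its starts had a match. It was found in 73.9% of 23 hypoxia targets and 63.6% of 22 glycolysis genes with a promoter in the table, against 28.8% of 10931 tested genes and 21.8% of 27025 genes in all. Bnip3 is shown because it more than doubled with both libraries alike. In the 140 bases before its start (chr7:138909507-138909646, minus strand), the capitals mark a match on each strand, together covering 6 bases.
Bnip3: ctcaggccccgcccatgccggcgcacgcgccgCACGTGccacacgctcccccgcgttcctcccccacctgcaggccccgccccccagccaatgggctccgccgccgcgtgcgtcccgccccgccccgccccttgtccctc

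Genes of the integrated stress response fell. Atf4 is a transcription factor whose translation rises when amino acids run short or proteins misfold, and its targets encode amino acid transporters, synthetic enzymes and tRNA synthetases. Of 21 tested factors and targets of the pathway, 18 fell, 2 rose and 1 was not called, with a median log2 change of -0.632. Among all tested genes 24.1% fell and 26.5% rose. Chac1, which degrades glutathione, had 1327 and 1357 at 0 h against 308 and 306 at 24 h (log2 change -2.12 with SE 0.12, adjusted p = 1.1e-12). Atf3, a stress-induced factor, had 221 and 217 at 0 h against 55.3 and 67 at 24 h (log2 change -1.83 with SE 0.23, adjusted p = 4.5e-07). Trib3, a pseudokinase that feeds back on Atf4, had 4127 and 4163 at 0 h against 2072 and 1920.3 at 24 h (log2 change -1.05 with SE 0.067, adjusted p = 1.2e-11). Atf4 itself had 25357 and 26234 at 0 h against 15537 and 14129 at 24 h (log2 change -0.80 with SE 0.045, adjusted p = 1.4e-12). No 24 h library reached the 0 h range in any of the 4, and the groups did not overlap in 74.7% of all tested genes.

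Stc2 (log2 change -1.33, SE 0.20) and Cebpb (log2 change -1.21, SE 0.12) were the other members to fall at least 2-fold. The 2 that rose were Ddit4, an inhibitor of mTORC1 that is also a hypoxia target (2645 and 2653 at 0 h against 4006 and 4079 at 24 h, log2 change 0.61 with SE 0.068, adjusted p = 1.1e-07), and Cebpg, a partner of Atf4 (log2 change 0.45, SE 0.06). Of 15 amino acid transporters 9 fell and 4 rose (median -0.49), against 24.1% lower and 26.5% higher of all tested genes. Slc7a11, the cystine and glutamate exchanger, had 143 and 149 at 0 h against 27.6 and 17.5 at 24 h (log2 change -2.68 with SE 0.38, adjusted p = 3.3e-06). Slc7a1, which carries arginine and lysine, had 13799 and 14349 at 0 h against 7142 and 6661 at 24 h (log2 change -1.03 with SE 0.045, adjusted p = 2.0e-14), and Slc1a4 fell too (log2 change -0.98, SE 0.079). The rises were Slc36a1 (log2 change 0.81, SE 0.058), Slc43a1 (log2 change 0.46, SE 0.11), Slc38a2 (log2 change 0.41, SE 0.039) and Slc1a3 (log2 change 0.26, SE 0.10), of which Slc1a3 was not called without library 1 (0.22) or 2 (0.30) of 0 h or library 2 of 24 h (0.19).

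Of 15 enzymes of serine and one-carbon metabolism 10 fell and 1 rose (median -0.287), against 24.1% lower and 26.5% higher of all tested genes. Without library 1 of 0 h or either library of 24 h, 0 rises were left. Mthfd2, the mitochondrial folate enzyme, had 7546 and 7439 at 0 h against 4309 and 3979 at 24 h (log2 change -0.86 with SE 0.051, adjusted p = 3.9e-12), and Aldh1l2 had 671 and 666 at 0 h against 253 and 233 at 24 h (log2 change -1.46 with SE 0.15, adjusted p = 2.3e-08). Psat1 of serine synthesis fell less (log2 change -0.59, SE 0.041). Of 20 cytosolic tRNA synthetases 13 fell and 1 rose (median -0.251), with the falls led by Wars (log2 change -0.67, SE 0.059) and Nars (log2 change -0.48, SE 0.045), which is on the Atf4 list too. The rise, Dars (log2 change 0.22, SE 0.052), was not called without library 2 of 0 h (0.15). Falls in introns numbered 12 of 18 Atf4 genes, 10 of 15 one-carbon genes, 7 of 14 transporters and 13 of 20 synthetases. The share over all genes tested in introns was 18.3%. By contrast 18 of 20 chaperones and targets of Xbp1 in the endoplasmic reticulum rose and 1 fell (median 0.259). Hspa5, the chaperone BiP, had 34109.5 and 34461 at 0 h against 44319 and 45163 at 24 h (log2 change 0.38 with SE 0.047, adjusted p = 4.3e-07), Dnajb9 rose (log2 change 0.56, SE 0.061), and Herpud1 was the member that fell (log2 change -0.47, SE 0.073).

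The binding motif of Atf4 with C/EBP partners was searched as TGATGNAAN on either strand in the same promoter windows. It was found in 38.9% of 18 Atf4 pathway genes, 38.5% of 13 synthetases, 20% of 10 transporters and 8.3% of 12 one-carbon genes, against 2.7% of tested genes and 4.5% of all. Slc7a11 and Atf3 are shown, with the matches in capitals, as the transporter and the factor that fell most among genes with a match. Both windows are the 140 bases before the start (chr3:50443614-50443753, minus strand, and chr1:191183334-191183473, minus strand). A match is a description of the letters and not of binding.
Slc7a11: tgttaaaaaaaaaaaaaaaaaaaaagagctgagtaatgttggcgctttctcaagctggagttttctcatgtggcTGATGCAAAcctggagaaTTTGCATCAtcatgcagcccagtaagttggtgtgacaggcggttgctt
Atf3: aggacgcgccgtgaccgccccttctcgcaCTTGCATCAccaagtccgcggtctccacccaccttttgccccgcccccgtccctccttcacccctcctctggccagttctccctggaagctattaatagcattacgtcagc

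**Figure D2:**
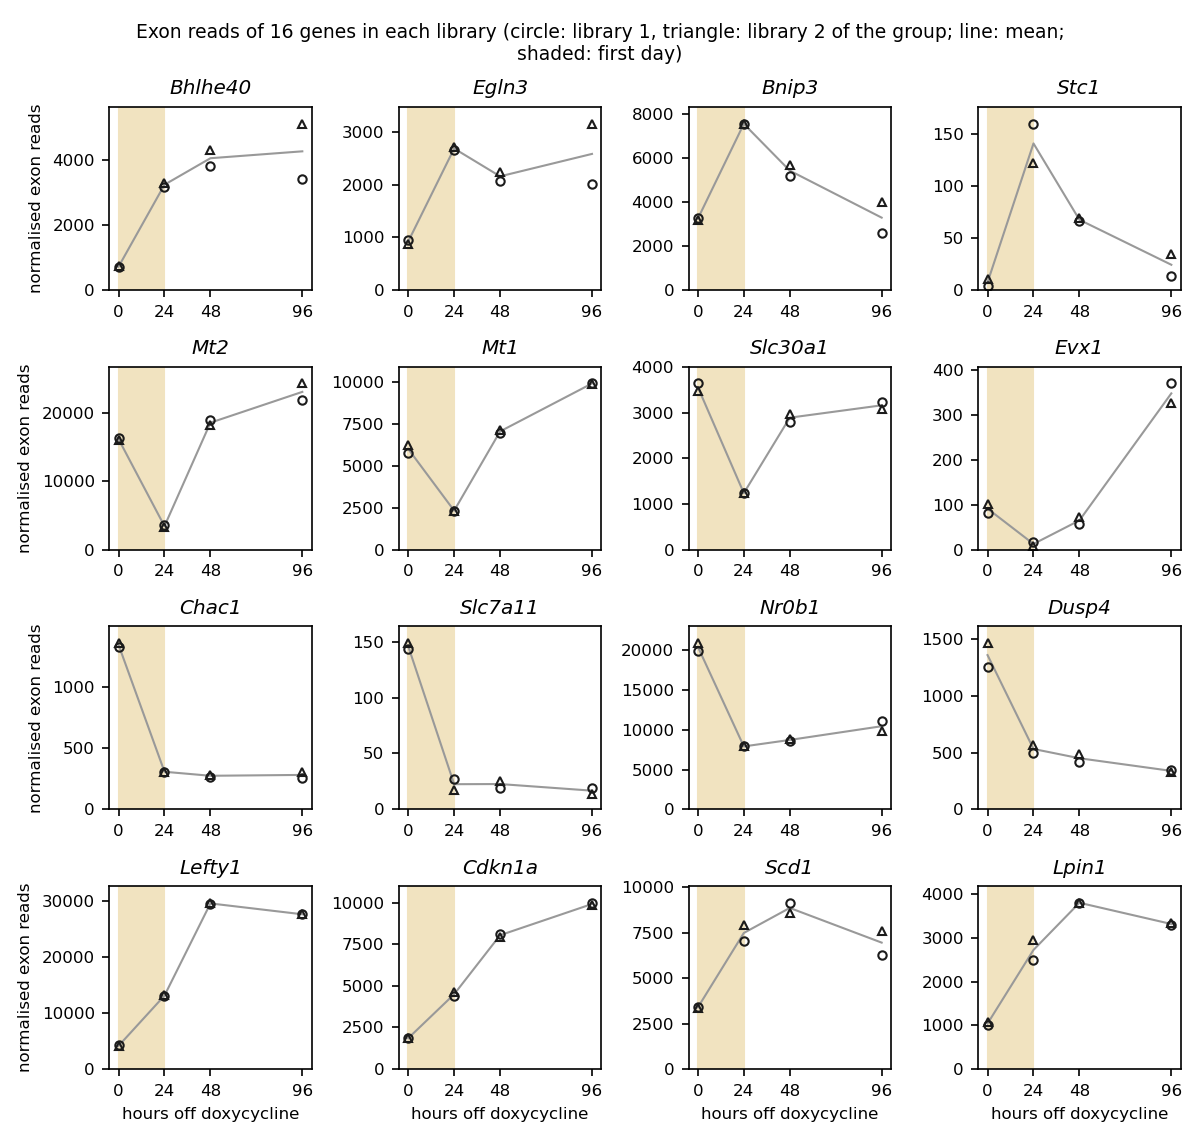
Normalised exon reads (vertical axis, from 0) of 16 genes against hours off doxycycline (horizontal axis), with library 1 of each group as a circle, library 2 as a triangle and the mean as a line. The shaded first day holds the rise of Bhlhe40 from 699.7 and 735 to 3171 and 3305, the fall of Mt2 from 16291 and 16016 to 3607 and 3280, and the fall of Chac1 from 1327 and 1357 to 308 and 306.

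The metallothionein genes Mt2 and Mt1 and the zinc exporter gene Slc30a1 fell on the first day and were high again on the second. Metallothioneins bind zinc and copper, and their genes, like that of the exporter Slc30a1, are driven by the zinc sensor Mtf1. Mt2 had 16291 and 16016 at 0 h against 3607 and 3280.1 at 24 h (log2 change -2.23 with SE 0.051, adjusted p = 2.0e-19), and then 18934 and 18161 at 48 h and 21796 and 24296 at 96 h. Mt1 had 5755 and 6267 at 0 h against 2334 and 2324 at 24 h (log2 change -1.37 with SE 0.048, adjusted p = 9.8e-16), and then 6976 and 7136 at 48 h. Slc30a1 had 3642 and 3473 at 0 h against 1245 and 1233 at 24 h (log2 change -1.52 with SE 0.058, adjusted p = 2.1e-15), and then 2805 and 2975 at 48 h. All 3 were low in both 24 h libraries and in neither library of any other time.

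Intron reads of Mt2 fell alike (293 and 304 at 0 h against 57 and 51.9 at 24 h), and those of Mt1 (199 and 213 at 0 h against 68 and 48.8 at 24 h). Of 19 tested genes of metallothioneins and zinc handling, 5 fell and 7 rose, against 24.1% lower and 26.5% higher of all tested genes. The list as a whole had a median of 0.021. The other falls were Slc39a14, an importer (log2 change -0.68, SE 0.046), and Slc30a4 (log2 change -0.81, SE 0.15). The rises included Slc30a10, the importer Slc39a10 (5874 and 5694 at 0 h against 8983 and 9064 at 24 h, log2 change 0.64 with SE 0.046, adjusted p = 9.1e-11), Mtf1 (log2 change 0.42, SE 0.056) and Mt3 (log2 change 0.95, SE 0.25), which was not called without library 1 of 24 h (0.65). A loose form of the core of the metal response element, TGCNCNC on either strand, is a common run of letters. It was in 64.7% of the tested genes' promoters and in 87.5% of 16 from the list, and at least 2 matches were in 30.9% and 56.2%. Mt2 and Mt1 are shown as the metallothioneins that fell (chr8:94172478-94172617, plus strand, and chr8:94178949-94179088, plus strand), with matches to the loose form TGCNCNC in capitals.
Mt2: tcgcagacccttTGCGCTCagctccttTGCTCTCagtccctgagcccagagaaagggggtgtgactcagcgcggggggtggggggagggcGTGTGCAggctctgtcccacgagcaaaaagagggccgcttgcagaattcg
Mt1: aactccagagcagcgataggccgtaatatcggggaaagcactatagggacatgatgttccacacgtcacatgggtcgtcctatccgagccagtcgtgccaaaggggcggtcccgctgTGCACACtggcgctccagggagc

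Genes of sterol and fatty acid synthesis rose. Srebp factors drive both sets and respond to sterol supply. Of 24 genes of cholesterol synthesis and Srebp2 targets, 18 rose and 1 fell (median 0.309), against 26.5% higher and 24.1% lower of all tested genes. Insig1, the sterol-sensing anchor, had 3470.4 and 3238 at 0 h against 5789 and 6198 at 24 h (log2 change 0.84 with SE 0.053, adjusted p = 1.3e-11). Neither 24 h library of Insig1 fell in the 0 h range, and the groups did not overlap in 74.7% of all tested genes. Fdft1 (squalene synthase) rose as well (log2 change 0.60, SE 0.054), and Hsd17b7 was the fall (log2 change -0.29, SE 0.085), which was not called without library 2 of 24 h (-0.22). Of 16 genes of fatty acid synthesis, 12 rose and 2 fell (median 0.388). Lpin1, a phosphatidate phosphatase, had 1013 and 1068 at 0 h against 2492 and 2952 at 24 h (log2 change 1.38 with SE 0.067, adjusted p = 1.2e-13), and Scd1, stearoyl-CoA desaturase, had 3420.1 and 3361 at 0 h against 7070.1 and 7901 at 24 h (log2 change 1.14 with SE 0.066, adjusted p = 2.1e-12). Their groups did not overlap either. The falls were Mid1ip1 (log2 change -0.48, SE 0.083) and Elovl6 (log2 change -0.20, SE 0.04). The sterol element, searched as TCACNCCAC on either strand, was in the promoter of 1 of 16 cholesterol genes (6.2%) and 0 of 13 fatty acid genes, against 1.5% of tested genes.

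Known targets of ES-cell microRNAs were mostly higher within the day. Of 29 tested, 21 rose, 4 fell and 4 were not called, with a median of 0.385. Among all tested genes 26.5% rose and 24.1% fell. Lefty1, a Nodal inhibitor, had 4234 and 4067 at 0 h against 13071 and 13219 at 24 h (log2 change 1.66 with SE 0.04, adjusted p = 3.0e-19). Lefty2 had 4496 and 4228 at 0 h against 11383 and 10957 at 24 h (log2 change 1.36 with SE 0.052, adjusted p = 2.1e-15). Both genes are near copies of each other, and how reads common to both were counted is not given, so their separate values are uncertain. Cdkn1a, the cell-cycle inhibitor p21, had 1849.7 and 1857 at 0 h against 4373 and 4619.5 at 24 h (log2 change 1.28 with SE 0.047, adjusted p = 1.7e-15). In all 3 the 24 h reads were more than 2-fold above both 0 h libraries, and they went on rising, with 29492 and 29769.8 at 48 h for Lefty1 and 8139.8 and 7947 at 48 h for Cdkn1a.

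Irf2, an interferon regulatory factor, was scarce at first (13.5 and 6.56 at 0 h against 35.1 and 29.1 at 24 h, log2 change 1.65 with SE 0.32, adjusted p = 1.3e-04) and had 316 and 360.5 at 96 h. Itgav, an integrin subunit, rose (3025 and 2933 at 0 h against 5049 and 5368 at 24 h, log2 change 0.81 with SE 0.049, adjusted p = 5.3e-12) with no call in introns (0.06, adjusted p = 0.78). Rbl2, a pocket protein of the retinoblastoma family, rose (log2 change 0.62, SE 0.069). The 4 that fell were the nuclear receptor gene Nr2f2 (64.8 and 62.4 at 0 h against 23.4 and 42.2 at 24 h, log2 change -0.99 with SE 0.25, adjusted p = 0.0018), Cdk6 (log2 change -0.53, SE 0.047), Lats2, a Hippo kinase (643 and 687 at 0 h against 545 and 496 at 24 h, log2 change -0.35 with SE 0.094, adjusted p = 0.0032), and Klf4 (log2 change -0.15, SE 0.05). Nr2f2 was not called without library 1 of 24 h (-0.58), nor Klf4 without that library (-0.10) or without library 2 of 0 h (-0.12), so that 2 falls were left without library 1 of 24 h. Lats2 and Nr2f2 were higher than at 0 h by the end of the course, with 2718 and 2289.8 at 96 h and 473 and 432 at 96 h.

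Rises of known targets were seen in introns too (11 of 27 rose and 5 fell, against 18.9% and 18.3% of all genes tested in introns). All genes were next sorted by seed matches in the longest annotated 3′ untranslated region (GENCODE, GRCm38), which 13335 tested genes had. Matches to AGCACTT, the complement of the shared seed of miR-291a-3p to miR-302d-3p, were absent in 11065, single in 1850 and 2 or more in 420. Exon medians differed little, at 0.005, 0.052 and 0.047, while 25.5, 33.2 and 30.0% of the genes rose and 24.2, 22.1 and 26.4% fell. Intron medians went the other way, at 0.013, -0.019 and -0.113. The exon change minus the intron change, which sets aside what is shared with unspliced RNA, had medians of -0.001, 0.075 and 0.173. These groups differ in length as well, with median regions of 941, 2286 and 3883 bases.

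Within regions of 500 to 1000 bases, genes with a match had an exon minus intron median of 0.031 (192 genes) against -0.008 without (2117 genes). Between 1000 and 2000 bases the medians were 0.068 and 0.003, and between 2000 and 4000 bases 0.093 and 0.045. The difference between 2 or more matches and none was 0.177 and 0.168 with the 24 h libraries taken singly. For the let-7 match CTACCTC the medians of exon minus intron were 0.014, 0.041 and -0.044 for 0, 1 and 2 or more matches. Matches to miR-17 and miR-20a (GCACTTT), which share 6 letters with the first motif and so many of its sites, gave 0.000, 0.098 and 0.163, matches to miR-92a (GTGCAAT) 0.010, 0.078 and 0.144, and matches to miR-16 (TGCTGCT) 0.011, 0.019 and 0.059. These medians describe the groups and were not tested. The letters of the known targets themselves vary: Cdkn1a had 2 matches of the first motif, Lefty1, Lefty2 and Irf2 1 each, and Itgav, Nr2f2, Klf2 and Btg2 none.

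**Figure D3:**
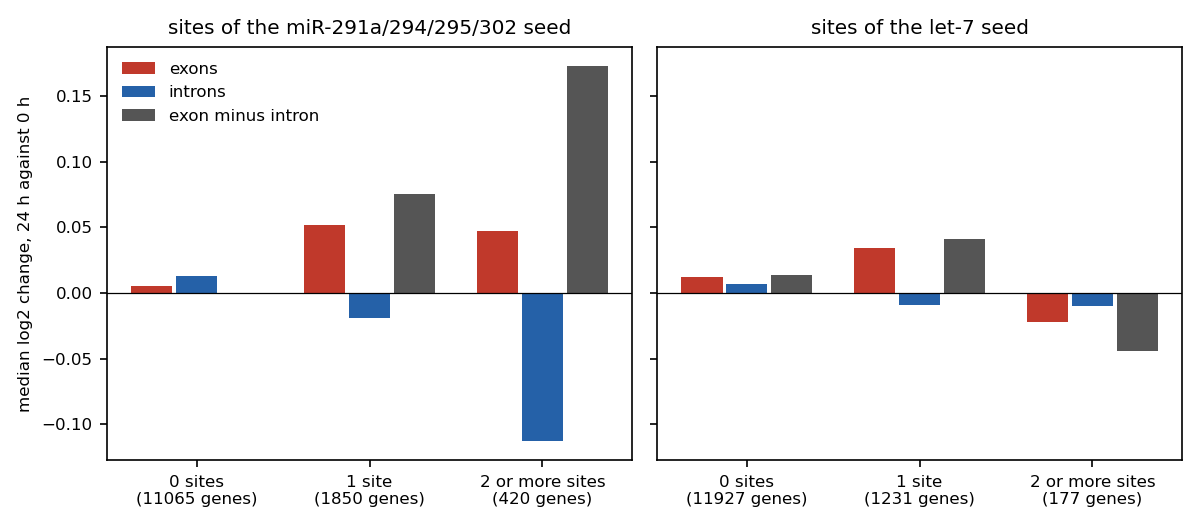
Median log2 change, 24 h against 0 h (vertical axis, from 0), in exons, in introns and in exons minus introns for genes with 0, 1 or 2 or more seed matches in the 3′ untranslated region (horizontal axis). For the seed AAGUGCU the exon minus intron bars go from -0.001 to 0.173 while intron bars go from 0.013 to -0.113, and for let-7 no bar passes 0.05 in size.

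Factors of naive pluripotency and the feedback genes of Fgf and Erk signalling mostly fell. Erk signalling is known for moving ES cells out of the naive state, and its Dusp, Spry and Etv genes report its output. Of 26 naive factors 16 fell and 8 rose (median -0.165), against 24.1% lower and 26.5% higher of all tested genes. Nr0b1 (Dax1), an orphan receptor of the naive network, had 19901 and 20867 at 0 h against 7907 and 7889 at 24 h (log2 change -1.37 with SE 0.048, adjusted p = 9.8e-16), and Gbx2 had 2621 and 3025 at 0 h against 1055 and 1048 at 24 h (log2 change -1.42 with SE 0.09, adjusted p = 1.3e-11). Nanog went the other way, with 46587 and 46475 at 0 h against 67676 and 66502 at 24 h (log2 change 0.53 with SE 0.038, adjusted p = 9.7e-11). In none of these 3 did the groups overlap, and the same held for 74.7% of all tested genes. Prdm14 rose with Nanog (log2 change 0.83, SE 0.058), Klf5 (log2 change -0.69, SE 0.052) and Utf1 (log2 change -0.60, SE 0.048) fell, and Pou5f1 (Oct4) fell slightly (74378 and 75046 at 0 h against 66578 and 66243 at 24 h, log2 change -0.17 with SE 0.038, adjusted p = 6.2e-04).

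Of 17 Fgf and Erk feedback genes 10 fell and 4 rose (median -0.257), against 24.1% lower and 26.5% higher of all tested genes. Dusp4, an Erk phosphatase, had 1252 and 1465 at 0 h against 496 and 568 at 24 h (log2 change -1.35 with SE 0.11, adjusted p = 1.1e-09), and Dusp6 had 4544 and 4593 at 0 h against 2225 and 2089 at 24 h (log2 change -1.08 with SE 0.059, adjusted p = 7.8e-13). Both phosphatase genes were lower in each 24 h library than in either 0 h library. The groups did not overlap in 74.7% of all tested genes. Phlda1 (log2 change -1.43, SE 0.12), Etv4 (log2 change -1.24, SE 0.053), Spry2 (log2 change -0.95, SE 0.053) and Spry4 (log2 change -0.90, SE 0.052) fell as well. The ligand Fgf4 rose (17761 and 18514 at 0 h against 30824 and 31499.5 at 24 h, log2 change 0.78 with SE 0.039, adjusted p = 2.2e-13), as did Fgf15 (log2 change 0.93, SE 0.085). The immediate early factor Egr1, also a reporter of Erk, fell (5506 and 5263 at 0 h against 2456 and 2142 at 24 h, log2 change -1.23 with SE 0.058, adjusted p = 8.2e-14), while Ier3 rose (398 and 391 at 0 h against 1526 and 1491 at 24 h, log2 change 1.93 with SE 0.095, adjusted p = 1.4e-13). Of 19 tested immediate early genes 11 rose and 5 fell (median 0.19), against 26.5% higher and 24.1% lower of all tested genes. On the let-7 and Lin28 list 11 of 20 fell and 4 rose, against 24.1% and 26.5% of all tested genes. The falls were led by Myc (2801 and 3114 at 0 h against 1276 and 1042 at 24 h, log2 change -1.36 with SE 0.092, adjusted p = 3.8e-11) and Ccnd2 (log2 change -0.98, SE 0.077), with Lin28a at 31348 and 31030.2 at 0 h against 23442 and 22526 at 24 h (log2 change -0.44 with SE 0.041, adjusted p = 6.0e-09).

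Targets of Smad2/3, the factors that Nodal and activin switch on, had 14 rises and 3 falls among 23 tested (median 0.209). The shares over all tested genes were 26.5% higher and 24.1% lower. Gsc, a gene of the anterior streak, had 22.2 and 24.1 at 0 h against 76.5 and 88.8 at 24 h (log2 change 1.79 with SE 0.27, adjusted p = 7.7e-06), and Ltbp1 (log2 change 1.04, SE 0.12) and Skil (log2 change 0.50, SE 0.058) rose. Smad7, the inhibitory Smad, was among the falls (6843 and 6996 at 0 h against 4738 and 4699.6 at 24 h, log2 change -0.55 with SE 0.049, adjusted p = 2.9e-09), which numbered 1 in place of 3 without library 2 of 24 h. Lefty1, Lefty2 and Bhlhe40 stand on this list as well as on those above. Of 21 BMP components and Smad1/5 targets 10 rose and 3 fell, against 26.5% higher and 24.1% lower of all tested genes. Among them were a fall of Id3 (1909 and 1815 at 0 h against 816 and 655 at 24 h, log2 change -1.35 with SE 0.10, adjusted p = 2.9e-10) and of the ligand gene Bmp4 (log2 change -0.95, SE 0.10) and a rise of Bmp7 (log2 change 1.18, SE 0.14).

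Of 24 p53 targets 17 rose and 2 fell (median 0.346), against 26.5% higher and 24.1% lower of all tested genes. Cdkn1a led the rises, followed by the DNA polymerase gene Polk (1050.5 and 1012 at 0 h against 1849 and 1977 at 24 h, log2 change 0.89 with SE 0.066, adjusted p = 1.6e-10), and the falls were Gadd45a (log2 change -0.80, SE 0.057) and Sesn2 (log2 change -0.50, SE 0.047), which is an Atf4 target too. Rb1, the retinoblastoma protein gene, rose (674 and 683 at 0 h against 1459.9 and 1470.4 at 24 h, log2 change 1.11 with SE 0.074, adjusted p = 2.6e-11). Of 30 genes of ribosome biogenesis 22 fell and 1 rose (median -0.212), none by 2-fold. The rise, Npm1 (log2 change 0.23, SE 0.059), was not called without library 2 of 0 h or library 1 of 24 h, which left 0 rises. Among 21 interferon-stimulated and sensor genes, Irf2 included, 10 rose and 3 fell, against 26.5% higher and 24.1% lower of all tested genes. Stat2 had 1089 and 1104 at 0 h against 2411 and 2635 at 24 h (log2 change 1.20 with SE 0.065, adjusted p = 7.8e-13), Zbp1, a sensor of Z-form nucleic acid, had 11.6 and 9.85 at 0 h against 37.2 and 55.3 at 24 h (log2 change 1.99 with SE 0.29, adjusted p = 5.5e-06), and Ddx58 (RIG-I) fell (3558 and 3656 at 0 h against 1708 and 1484 at 24 h, log2 change -1.18 with SE 0.071, adjusted p = 5.0e-12). Only 1 of the 3 falls was left without library 2 of 0 h or without library 1 of 24 h.

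Introns were set beside exons to see where unspliced RNA moved with the message. In introns 4548 of 12225 tested genes (37.2%) were called, 2316 higher (18.9%) and 2232 lower (18.3%). Of 356 genes called at least 2-fold higher in exons and tested in introns, 248 (69.7%) were called higher in introns and 1 lower. Of 151 called at least 2-fold lower, 76 (50.3%) were lower and 2 higher. For all called genes the shares moving alike were 45.3% of 3298 that rose and 41.7% of 2998 that fell. The largest intron rises were in Ndrg2 (2.89 and 20.7 at 0 h against 125 and 134 at 24 h, log2 change 3.83 with SE 0.44, adjusted p = 4.3e-08), Copz2 (log2 change 3.60 with SE 0.29, adjusted p = 2.9e-11), Crxos (3.21), Bhlhe40 (7.7 and 9.33 at 0 h against 71.3 and 64.1 at 24 h, 2.85) and Adgrg5 (2.72). The largest falls were in 9330159F19Rik (103 and 69.5 at 0 h against 18.6 and 0 at 24 h, -4.27), Bcl2l15 (-2.45), Mt2 (-2.44), Tex35 (-2.26) and BC051142 (-2.14). Low reads make several of these uncertain: 9330159F19Rik was -2.12 without library 2 of 24 h and -6.42 without library 1, and BC051142 -1.30 and -2.99 in the same order. Ndrg2 was 2.59 without library 1 of 0 h and 5.07 without library 2, Crxos 4.27 and 2.14, and Copz2 2.93 and 4.28.

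**Figure D4:**
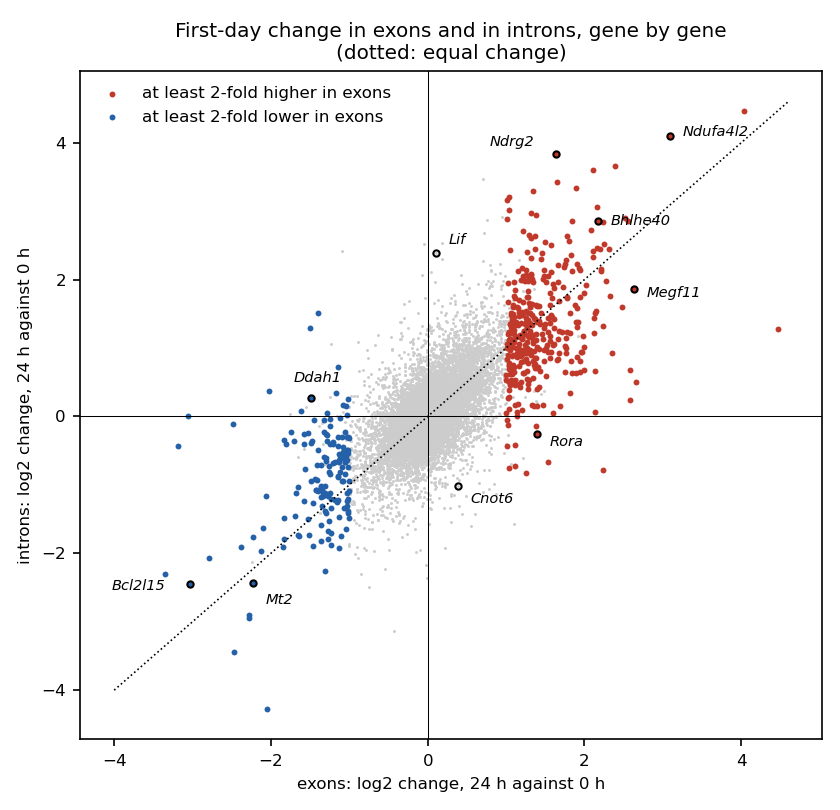
Log2 change in introns (vertical axis) against that in exons (horizontal axis), 24 h against 0 h, 1 point a gene, with the dotted line where both are equal. Of 356 genes at least 2-fold higher in exons (red) 248 were called higher in introns, and Lif, Cnot6, Rora and Ddah1 lie far from the dotted line.

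The change in exons minus that in introns was called for 492 of 11939 genes (4.12%), 301 higher (2.52%) and 191 lower (1.6%). This count is fragile: it was 0 or 1 when any single library was left out and 72 when exon and intron libraries were matched the other way within groups. The genes are therefore given by their values. Cnot6, a deadenylase of the Ccr4-Not complex that acts with Argonautes, had exon reads of 10210.1 and 9547 at 0 h against 12978 and 12742 at 24 h and intron reads of 1834 and 1899 at 0 h against 945 and 894 at 24 h, which moved in opposite directions. Rora, a nuclear receptor gene of the clock, had exon reads of 293 and 329 at 0 h against 749 and 888 at 24 h and intron reads of 170.3 and 135 at 0 h against 129 and 125 at 24 h. Usp29 (1.53), Serpinb9b (1.32) and Mep1b (1.25) completed the 5 largest positive values.

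On the negative side, Lif, the cytokine gene, had exon reads of 484 and 439 at 0 h against 482 and 512 at 24 h and intron reads of 15.4 and 7.26 at 0 h against 51.5 and 70.2 at 24 h. Ddah1, a methylarginine hydrolase, had exon reads of 3741 and 3967 at 0 h against 1354 and 1380.2 at 24 h and intron reads of 9372 and 8789 at 0 h against 11004 and 10804 at 24 h, so that exon reads fell and intron reads rose. Smim4 (-1.73), Hpca (-1.73) and Ccdc167 (-1.70) followed. Each of these 10 lost its call in every fit that left out a library.

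From 24 to 48 h 5324 of 13652 genes (39%) were called, 20.2% higher and 18.8% lower. The first-day step was also tested against the step from 24 to 48 h, which shares the 24 h libraries. It differed for 4052 of 13652 genes (29.7%), more positive on the first day in 2106 (15.4%) and more negative in 1946 (14.3%), and for 2693 and 2436 without library 1 and library 2 of 24 h. Among hypoxia targets the first-day step was the more positive in 22 of 29 and the more negative in none, and in glycolysis 18 of 23 and 1. Among Atf4 genes it was the more negative in 16 of 21 and the more positive in 2. Median log2 changes from 0 h, all against the same 0 h libraries, were 0.536, 0.577 and 0.175 at 24, 48 and 96 h for hypoxia targets, 0.401, 0.234 and -0.287 for glycolysis, and -0.632, -0.541 and -0.641 for Atf4 genes. For known microRNA targets they were 0.385, 0.843 and 1.234.

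Libraries of the rescue series, none of which enter the time course, were used to see where first-day changes went the other way when doxycycline was given back. In cells given 2.5 µg/mL for 48 h after 96 h without it, 8400 of 13176 genes (63.8%) were called, 4189 raised (31.8%) and 4211 lowered (32%). The dosed cells were 48 h longer in culture than their controls. Of 3543 first-day rises tested there, 2013 were lowered (56.8%, and 47.8% of all genes lowered) and 457 raised (12.9%). Of 3279 first-day falls, 1851 were raised (56.5%, and 44.2% of all genes raised) and 537 lowered (16.4%). For rises of at least 2-fold, 259 of 475 were lowered (54.5%) and 33 raised (6.95%), and for falls of at least 2-fold 99 of 232 were raised (42.7%) and 31 lowered (13.4%).

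Of 29 known microRNA targets 27 were lower with doxycycline and 1 was higher (median -1.344), among them Lefty1 (-2.89), Cdkn1a (-2.26) and Irf2 (-5.09). Of 21 Atf4 genes 17 were raised and none was lowered (median 0.94), with Chac1 at 3.25, and of 15 transporters 11 were raised and 2 lowered, with Slc7a11 at 2.75. Of 24 p53 targets 23 were tested, of which 18 were lowered and 2 raised. Glycolytic genes, which rose on the first day, were raised by doxycycline too (15 of 23, 4 lowered, median 0.539). Of 29 hypoxia targets 9 were raised and 12 lowered, not far from the shares over all tested genes (31.8% and 32%). Adm (-3.35) and Bhlhe40 (-1.34) were lowered, Bnip3 (0.93) was raised, and Egln3 (-0.094, adjusted p = 0.47) and Stc1 (-0.029, adjusted p = 0.97) were not called. Mt2 (-0.21) and Mt1 (-0.41), which fell on the first day, were lowered here as well.

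**Figure D5:**
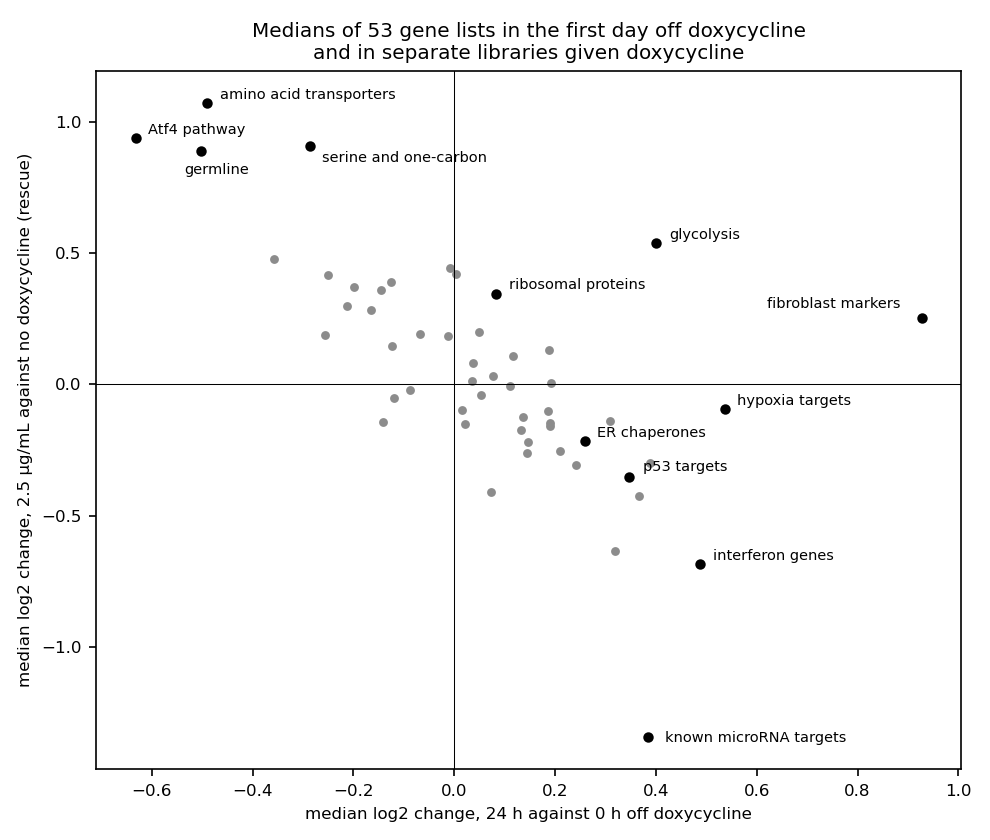
Median log2 change of 53 gene lists after the first day off doxycycline (horizontal axis) and in separate libraries given 2.5 µg/mL against none (vertical axis), 1 point a list. Atf4 genes lie at -0.63 and 0.94 and known microRNA targets at 0.39 and -1.34, on opposite sides of 0 in the 2 series, while glycolysis lies at 0.40 and 0.54.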

How the data were processed

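Per the file headers, the authors deposited exon and intron signal for each gene as a group mean of normalised reads. TopHat2 2.0.12, DESeq and mm10 are named by the submitters' processing notes. Which read counter, strand setting and annotation were used is not stated in the labels or headers. Each mean is a sum of whole reads of 2 libraries at fixed steps, so the reads of both were recovered, with 1 solution for all 147296 time-course and 110472 rescue values (100%). Libraries are numbered by depth, and which deposited sample each is was not determined. With limma 3.58.1 (R 4.3.3) a model was fitted on log2(normalised reads + 1) with trended variance, for genes with a mean of at least 10, over all 4 times, with Benjamini-Hochberg adjustment at 0.05. The SE is limma's moderated SE over 2 libraries a group, and its median was 0.0797 in exons and 0.146 in introns. The fit was tested on simulated data.

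Exon minus intron values were centred on each library's median, with libraries matched by the correlation of deviations (-0.155 to 0.116, 8461 genes), a weak match. Coordinates and untranslated regions are from GENCODE on GRCm38, and promoters and microRNAs from RefSeq GRCm38.p6. The members and gene lists were chosen with earlier results of these data known, and the comparison with the rescue series after seeing the data. Named genes were the 12 largest called changes each way with a group mean of at least 50 and no overlap between groups, the 5 largest in introns, exon minus intron and day difference, the deleted genes, and the leading members of each list. Overlapping genes may share reads. Alternatives were the pseudocount, filter, scaling, libraries fitted, limma-voom on recovered reads, library matching and leaving out each library. Some genes that these rules name are not reported here.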

Additional observations from a re-analysis of the deposited data

Results flagged for a closer look

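For 10 genes the first-day step differed from the step between 24 and 48 h by a test of the difference itself (limma, with Benjamini-Hochberg adjustment over all genes), and these were the 5 most positive and the 5 most negative by the rule for named genes. The 2 steps share the 24 h libraries, so a value at 24 h that is high or low by chance moves both. Stc1 had a difference of 5.25 on the log2 scale, with exon reads of 3.87 and 10.9 at 0 h against 160.4 and 122 at 24 h and 66.2 and 69.3 at 48 h. Adm had 5.18, Cxcl12 3.81, Ndufa4l2 3.58 and Slc30a10 3.43. Evx1 had -5.11, Fut1 -5.06, Mt2 -4.66, Bcl2l15 -4.01 and Hoga1 -3.99. A high or low value at 24 h is what these genes were chosen for, so that pattern is no further support. Fut1 went to 36.9 and 37.9 at 48 h.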

How the results depend on the processing

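No paired analysis was possible because the columns are group means with no replicate number, and recovered libraries cannot be tied to numbered samples. Exon calls numbered 5556 to 6064 when any library was left out and 6606 to 6971 under the other settings, against 6919, with 5365 to 6919 shared and 0 in the opposite direction. Intron calls numbered 3379 to 4122 and 4071 to 4604, against 4548. Exon minus intron calls (492) depended on the choices made: 72 with the other matching of libraries, 1119 with a filter at a mean of 50, 620 with a pseudocount of 8, and 0 to 1 with a library left out, where 2348 to 2761 genes had an unadjusted p below 0.05 in limma, against 3153 with all libraries. The cause was not tested. Differences between first and second day numbered 2436 to 3756 with a library left out, against 4052. First-day rises lowered in the rescue numbered 1810 to 2240 and falls raised 1632 to 1865. Over 14056 other recomputed values, 13368 kept their side of the threshold or, for counts and untested values, stayed near the main value. Another 528 lost the call, 83 gained one and 77 untested values or counts moved. With a call in either fit, 0 reversed direction, and reversals without any call were not counted. Without library 2 of 0 h, 3 of 56 cytosolic ribosomal proteins rose in place of 19. With 2 libraries a group, changes near the median SE were not detectable.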

Other observations

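Of 18 tested clock genes 11 rose on the first day, 3 fell and 4 were not called, where 50.7% of all tested genes were called, 26.5% higher and 24.1% lower. The median log2 change was 0.367 against 0.012 over all genes. Per2, a repressor of the clock, fell, with 52.2 and 70 at 0 h against 17 and 37.9 at 24 h (log2 change -1.22 with SE 0.41, adjusted p = 0.017, limma with Benjamini-Hochberg adjustment), and Cry1 and Ciart fell too (log2 change -0.59, SE 0.062, and log2 change -0.67, SE 0.13). Bhlhe41, the relative of Bhlhe40, had 15.5 and 4.38 at 0 h against 38.3 and 29.1 at 24 h (log2 change 1.87 with SE 0.56, adjusted p = 0.0074), and Npas2, a relative of Clock, rose (log2 change 1.06, SE 0.26). Neither Per2 nor Bhlhe41 had overlapping groups, and nor did 74.7% of all tested genes. Both calls were lost without library 2 of 0 h (-1.01 and 1.06) and without library 1 of 24 h (-0.66 and 1.68). That left 2 falls in either case. The labels give hours on and off doxycycline but no time of collection, and the part of clock time in these values was not tested.

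Of 17 tested germline and meiosis genes 8 fell and 3 rose (median -0.503), against 24.1% lower and 26.5% higher of all tested genes. Without library 2 of 0 h or without library 1 of 24 h, 5 falls were left. Tex19.1, which guards against retrotransposons, had 3363 and 3348 at 0 h against 1177 and 1194 at 24 h (log2 change -1.50 with SE 0.066, adjusted p = 2.0e-14), and Tdrd1, of the piRNA pathway, fell as well (log2 change -1.50, SE 0.33), against the rise of Stra8. Of 20 imprinted genes 6 rose and 6 fell, shares close to those over all tested genes (26.5% and 24.1%), among them Magel2 (276 and 328 at 0 h against 132 and 108 at 24 h, log2 change -1.33 with SE 0.24, adjusted p = 8.6e-05) and Peg10 (log2 change -0.62, SE 0.042) downwards and Cdkn1c, a cyclin-dependent kinase inhibitor (223 and 316 at 0 h against 441 and 476 at 24 h, log2 change 0.78 with SE 0.15, adjusted p = 1.8e-04), upwards. Of 51 mitochondrial ribosomal protein genes 22 fell and 4 rose (median -0.125), against 24.1% and 26.5% of all tested genes. The falls were led by Mrps34 (log2 change -0.69, SE 0.081), and 2 rises were left without library 2 of 24 h. Casp8, the initiator caspase of death receptors, had 21.3 and 17.5 at 0 h against 56.3 and 75.7 at 24 h (log2 change 1.71 with SE 0.33, adjusted p = 1.5e-04), the largest change among 22 genes of the Bcl2 family and death receptors. Of these 22, 11 rose and 5 fell, against 26.5% and 24.1% of all tested genes.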
